A study of Homo sapiens with 6 samples.

Results

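Amino acid transporters and serine synthesis enzymes were examined as 10 genes found by symbol among the 21961 genes of the count and FPKM tables. They were picked by their role, but with earlier results of these data known. Counts of the 10 set beside all tested genes therefore describe these genes and do not test them as a set. The 10 comprise 7 transporters of the plasma membrane (SLC7A5, SLC3A2, SLC7A1, SLC1A4, SLC1A5, SLC38A1 and SLC38A2) and the 3 enzymes that make serine from a glycolytic intermediate (PHGDH, PSAT1 and PSPH). RNA came from HaCaT, an immortalised human keratinocyte line, in 2 groups of 3 libraries titled mod and Nvs. The treatment label reads UV-induced for mod and control for Nvs, whereas the series' own design sentence describes irradiation with UVB in both arms and BVNV, vesicles of Beta vulgaris, in one of them. The sources used here state no dose, time or vesicle amount, so the groups keep their titles and no treatment is assigned to either. All libraries are of 1 cell line, and nothing says that the replicates came from separate cultures, so the p-values rest on a spread among libraries that may be technical only.

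Cells take up amino acids by exchange and by sodium-driven import. SLC1A5 and the SLC38 carriers bring in glutamine and other small neutral amino acids, and the heterodimer of SLC7A5 with SLC3A2 trades them for leucine and other large neutral ones, which feed protein synthesis and the mTORC1 kinase. Serine, made in the cell by PHGDH, PSAT1 and PSPH in turn, supplies glycine and one-carbon units for nucleotides. When amino acids run short, the kinase GCN2 phosphorylates the initiation factor eIF2, translation of the transcription factor ATF4 rises, and ATF4 is known to raise transcription of many of these transporters and enzymes.

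Every one of the 10 genes had lower TMM-scaled levels in Nvs than in mod, and for each of them the 3 Nvs libraries all lay below the 3 mod libraries. TMM scaling (trimmed mean of M values) sets the typical gene near 0 change, so each change is relative to the typical gene. The edgeR quasi-likelihood test over 14617 genes, at an adjusted p under 0.05, called 9 of the 10 lower and 0 higher; at that threshold 20.5% of all tested genes were lower and 22.8% higher. DESeq2, which called 21.6% of all genes lower and 23.7% higher, gave 10 lower and 0 higher. At an unadjusted p under 0.05, 10 were also lower and 0 higher. The share of all tested genes at that looser threshold was not counted, so those 10 have nothing to be set beside. Groups that do not overlap with Nvs lower were found for 26.7% of all tested genes. The median log2 fold change (Nvs minus mod, as throughout) was -0.54 for the 10 genes and -0.01 for all tested genes, and 0 of the 10 fell by 2-fold or more, as 3.03% of all tested genes did. In bulk RNA, fewer cells of a type and less RNA per cell cannot be told apart.

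**Figure D1:**
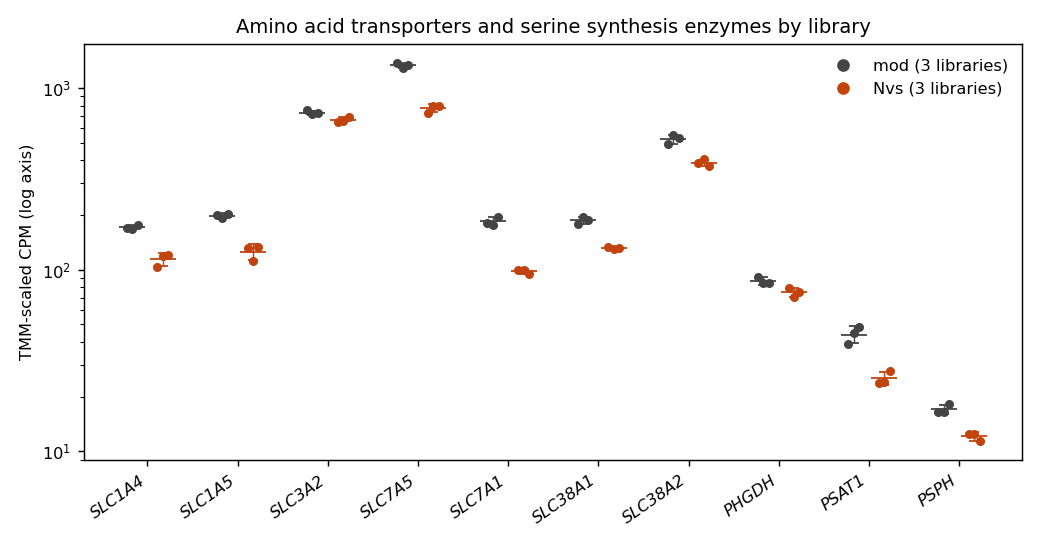
TMM-scaled CPM (log axis) of the 10 genes in each library, with points for libraries, horizontal marks for group means and bars for 1 SD (n = 3). In all 10 genes the Nvs points lie below the mod points, with the smallest gaps at SLC3A2 and PHGDH and the widest at SLC7A1, PSAT1 and SLC7A5.

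The mod libraries held 45637046 to 51369628 counts each and the Nvs libraries 41120058 to 44080808. Mitochondrially encoded genes took 29.8% to 31.4% of counts in mod and 51.8% to 53.3% in Nvs. With these genes left out of the table, all 10 genes were called lower, as were 21.2% of the genes tested (22.2% higher), and their median was -0.55. Scaled by library total, 68.0% of all tested genes were called lower and 4.03% higher, the 10 genes were all called lower, and the medians were -1.30 for the 10 and -0.77 for all. All 10 keratinocyte markers were tested, with a summed level, by library total, of 25183 to 27366 CPM in mod and 19618 to 21078 in Nvs. Markers of other cells summed to at most 16.0 (fibroblast, 6 of 8 found), 7.26 (melanocyte, 4 of 6), 4.67 (leukocyte, 4 of 5) and 0.720 (endothelium, 3 of 4) CPM in any library, and none of those found was at 0 in all 6.

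SLC7A5 encodes the light chain that carries leucine and other large neutral amino acids (LAT1), at chromosome 16, 87830023 to 87869488. Its levels were 1373, 1287 and 1332 CPM in mod and 729, 799 and 793 CPM in Nvs. The mod libraries were all far above the Nvs libraries. The fall of 0.78 ± 0.05 on the log2 scale (SE) left 58.2% of the mod level (edgeR adjusted p = 9.39e-08). Per length, it was the most abundant of the 10 genes in all 6 libraries, with 372, 355 and 357 FPKM in mod and 118, 129 and 126 FPKM in Nvs. Among 15045 nuclear protein-coding genes ordered by FPKM within a library, a rank that does not depend on how libraries are scaled, it stood at places 44, 46 and 44 in mod and at 133, 114 and 128 in Nvs.

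SLC3A2, at chromosome 11, 62856102 to 62888875, encodes the heavy chain (CD98) that takes SLC7A5 and several related light chains to the cell surface. Its levels were 752, 715 and 724 CPM in mod and 653, 659 and 691 CPM in Nvs. The groups did not overlap, but the gap was narrow. The log2 fold change of -0.13 ± 0.05 missed the threshold in edgeR (adjusted p = 0.0501). Among the other settings, DESeq2 called it lower (adjusted p = 0.0110), while removal of the trend of fold change with gene length gave -0.09 (adjusted p = 0.189). Without mod replicate 2 or Nvs replicate 3 it was called lower, with adjusted p of 0.0362 and 0.0271. In FPKM rank it went from places 114, 121 and 118 in mod to 199, 187 and 200 in Nvs.

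Since heavy and light chain form one carrier, their ratio within a library was compared, which any scaling of the library leaves as it is. There were 2.45, 2.42 and 2.47 FPKM of SLC7A5 per FPKM of SLC3A2 in mod, and 1.50, 1.63 and 1.54 in Nvs. The 2 groups were well apart, and the log2 ratio differed by -0.65 between group means, 1.29 ± 0.02 (SD, n = 3) in mod and 0.64 ± 0.06 in Nvs. An exact two-sided permutation test gave p = 0.1, the smallest that 3 against 3 libraries allow, and 0.3 after adjustment over 6 such ratios. A wider sum of light chains that pair with SLC3A2 was looked at after the values were seen. The sum over 5 light chains (SLC7A5, SLC7A6, SLC7A7, SLC7A8 and SLC7A11) per FPKM of SLC3A2 was 2.69, 2.66 and 2.73 in mod and 1.64, 1.77 and 1.68 in Nvs, so the groups were apart by this measure too, and SLC7A5 made up 90.3% to 91.8% of that sum in each library.

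**Figure D2:**
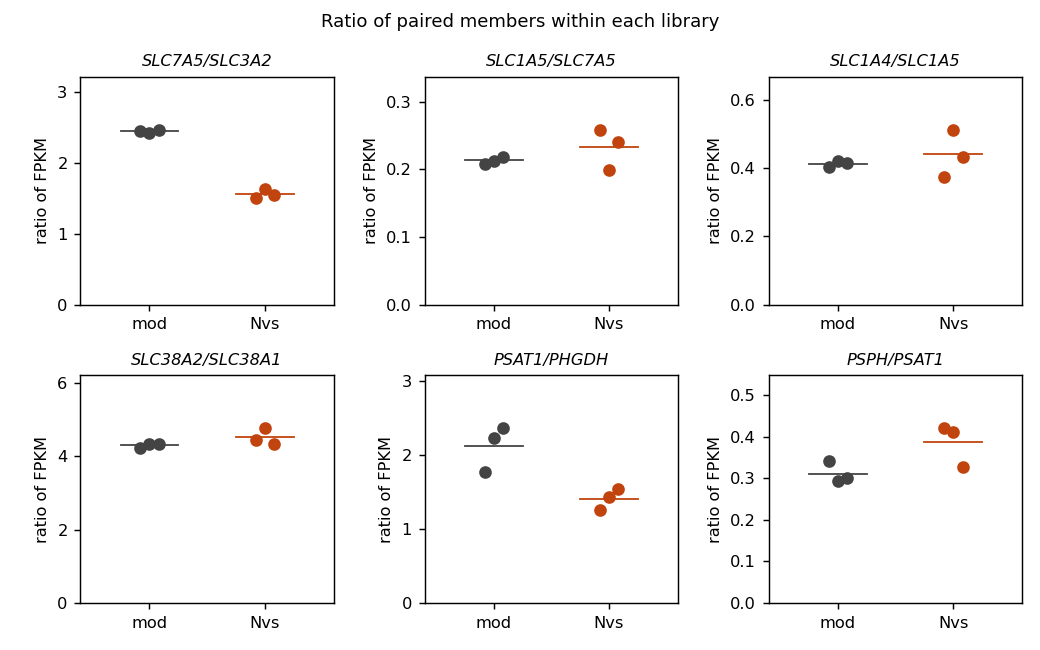
Ratio of the FPKM values of 2 genes within each library, for 6 pairs, with points for libraries and lines for group means on axes that start at 0. SLC7A5 per SLC3A2 (2.42 to 2.47 in mod, 1.50 to 1.63 in Nvs) and PSAT1 per PHGDH (1.77 to 2.37 in mod, 1.25 to 1.54 in Nvs) separate the groups, and the other 4 pairs overlap.

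SLC7A1, the carrier of arginine and lysine (CAT1) at chromosome 13, 29509410 to 29595688, had the lowest log2 fold change of the 10 genes with TMM scaling and by library total, but not once the trend with gene length was removed. It stood at 181, 176 and 195 CPM in mod and at 100, 99.3 and 94.3 CPM in Nvs. The Nvs libraries lay close together and well under the mod libraries. The log2 fold change was -0.91 ± 0.06 (SE), or 53.2% of the mod level (edgeR adjusted p = 3.00e-08), and 6.65% of all tested genes had a lower one. Its FPKM rank moved from places 940, 957 and 841 to 2107, 2114 and 2265.

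SLC1A5 (ASCT2), at chromosome 19, 46774883 to 46788594, exchanges glutamine for other neutral amino acids. Its values were 200, 191 and 204 CPM in mod and 132, 111 and 133 CPM in Nvs, with Nvs replicate 2 the lowest. It fell by 0.66 ± 0.07 on the log2 scale (edgeR adjusted p = 3.96e-06). SLC1A4 (ASCT1), its paralogue for alanine, serine, cysteine and threonine at chromosome 2, 64988477 to 65023865, had 168, 168 and 176 CPM in mod and 103, 119 and 120 CPM in Nvs. It fell by 0.58 ± 0.06 (adjusted p = 6.29e-06). The pair kept overlapping proportions, with 0.405, 0.422 and 0.414 FPKM of SLC1A4 per FPKM of SLC1A5 in mod and 0.375, 0.514 and 0.435 in Nvs (log2 difference 0.08, exact permutation p = 0.7, adjusted 0.7). That difference turned to -0.04 without Nvs replicate 2. SLC1A5 per SLC7A5 overlapped as well, at 0.208 to 0.219 in mod and 0.198 to 0.259 in Nvs (log2 difference 0.12, exact permutation p = 0.4, adjusted 0.48).

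SLC38A1 and SLC38A2 (SNAT1 and SNAT2) import glutamine, alanine and similar amino acids together with sodium, and lie side by side on chromosome 12, at 46183063 to 46270017 and 46358189 to 46372867. SLC38A2 had 491, 548 and 528 CPM in mod and 386, 404 and 372 CPM in Nvs. SLC38A1 had 179, 194 and 187 CPM in mod and 133, 130 and 132 CPM in Nvs. Both sets of groups were separate, with falls of 0.43 ± 0.06 for SLC38A2 (edgeR adjusted p = 3.29e-05) and 0.50 ± 0.05 for SLC38A1 (adjusted p = 3.99e-06). Per length SLC38A2 was the more abundant, at 4.23 to 4.34 times SLC38A1 in mod and 4.33 to 4.78 times in Nvs. That ratio overlapped between the groups (log2 difference 0.07, exact permutation p = 0.3, adjusted 0.45).

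The serine pathway moved unevenly along its steps. PHGDH, which oxidises 3-phosphoglycerate in the first step, lies at chromosome 1, 119648411 to 119744226. It had 91.1, 84.0 and 84.6 CPM in mod and 79.0, 70.6 and 75.0 CPM in Nvs. The groups were separate by a small margin, and its fall of 0.21 ± 0.06 (edgeR adjusted p = 0.0141) had an adjusted p of 0.0645 without mod replicate 1. PSAT1, the aminotransferase of the second step at chromosome 9, 78297143 to 78330093, had 38.8, 44.9 and 48.1 CPM in mod and 23.7, 24.2 and 27.8 CPM in Nvs. It fell to 57.5% of the mod level (log2 -0.80 ± 0.10, adjusted p = 1.63e-05), with the lowest mod library still above the highest Nvs library. PSPH, the phosphatase that releases serine, at chromosome 7, 56011051 to 56051604, had 16.5, 16.4 and 18.1 CPM in mod and 12.5, 12.4 and 11.4 CPM in Nvs. It fell by 0.49 ± 0.11 (adjusted p = 0.00216) and was the least abundant of the 10 genes per length in every library.

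Within libraries, PSAT1 per PHGDH went from 1.77, 2.23 and 2.37 in mod to 1.25, 1.43 and 1.54 in Nvs. These groups did not overlap (log2 difference -0.59, exact permutation p = 0.1, adjusted 0.3), although mod replicate 1 stood apart from the other mod libraries. PSPH per PSAT1 was 0.340, 0.292 and 0.301 in mod and 0.421, 0.411 and 0.327 in Nvs, which overlap (log2 difference 0.31, exact permutation p = 0.2, adjusted 0.4). In FPKM, the 3 enzymes together were at 43.2 to 48.0 in mod and 17.8 to 18.9 in Nvs, against 773 to 784 and 305 to 315 for the 7 transporters. FPKM values are scaled by library total, so these sums carry the shift of the median gene.

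In order of log2 fold change with TMM scaling the genes ran from SLC7A1 (-0.91) through PSAT1 (-0.80), SLC7A5 (-0.78), SLC1A5 (-0.66), SLC1A4 (-0.58), SLC38A1 (-0.50), PSPH (-0.49) and SLC38A2 (-0.43) to PHGDH (-0.21) and SLC3A2 (-0.13). PSAT1 and SLC7A5, and likewise SLC38A1, PSPH and SLC38A2, lay within the larger of their standard errors of their neighbour. Spread within a group was small, with a coefficient of variation between 1.24% and 10.7% over the 10 genes and both groups. Fold change followed gene length across the table, with a fitted trend of 0.14 at the genomic span of SLC1A5 (13.7 kb) and -0.20 at that of SLC7A1 (86.3 kb), so the test was repeated with that trend removed. With the trend removed, 17.5% of all tested genes were called lower and 20.8% higher, and 9 of the 10 genes were lower with a median of -0.55. PHGDH was among them at -0.17, near the threshold (edgeR adjusted p = 0.0439), with the trend read at a RefSeq span of 32.3 kb. That span is shorter than the GENCODE 29 interval given above for PHGDH, and the longer one was not tried. SLC38A1 moved from -0.50 to -0.30 and SLC7A1 from -0.91 to -0.71, SLC38A1 spanning 86.0 kb. The shorter SLC1A5 and SLC38A2 (14.6 kb) moved the other way, to -0.80 and -0.56. The order changed with it, SLC1A5 being lowest, ahead of PSAT1 (-0.76), SLC7A5 (-0.71) and SLC7A1.

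**Figure D3:**
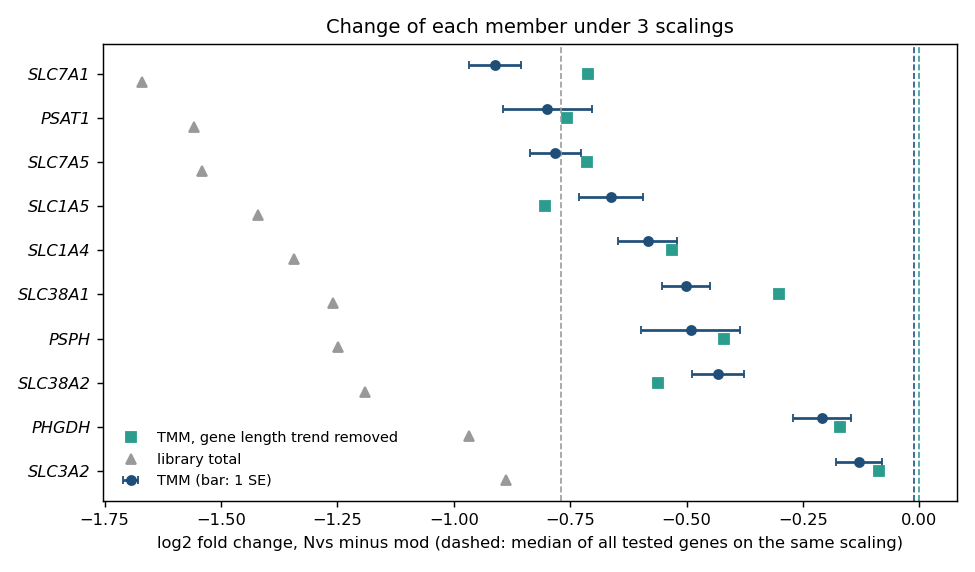
Log2 fold change (Nvs minus mod) of the 10 genes with TMM scaling (circles, bars of 1 SE), with the gene length trend removed (squares) and by library total (triangles); dashed lines mark the median of all tested genes in each. Every gene lies left of the line of its own scaling, from SLC7A1 at -0.91 to SLC3A2 at -0.13 with TMM.

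Exons of SLC1A5 share 780 bases with the antisense gene AC008622.2, and those of SLC7A5 share 271 with the antisense gene AC126696.2 in GENCODE 29. The libraries mark strand, but the strand setting of the counting is not given in the sources used here, so reads of these stretches are uncertain. Of 9 symbols of pseudogenes of the 10 genes, 1 was found, PSAT1P3, with 1 read in Nvs replicate 2 and 0 in the other 5 libraries.

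Because the genes moved in one direction and ATF4 is a known regulator of several, their promoter windows (250 bases before to 50 after each annotated start, RefSeq, GRCh38.p14) were searched on both strands for TGATGNAA, the core of the C/EBP-ATF response element that ATF4 binds. The table gave 15 windows for 9 of the 10 genes. A match was found in 5 windows, each of a different gene, while 3.62% of all 35116 windows and 4.46% of their 27305 genes held one. The 30 bases around each match are shown as matches of letters only, and a role of ATF4 in these changes was not tested. Capitals mark the match, read along the gene's own strand.
SLC1A4: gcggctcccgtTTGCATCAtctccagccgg
SLC1A5: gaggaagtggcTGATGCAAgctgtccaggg
SLC7A1: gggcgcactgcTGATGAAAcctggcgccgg
SLC38A1: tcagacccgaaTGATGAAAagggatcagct
SLC3A2: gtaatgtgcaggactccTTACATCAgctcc
They lie at chr2:64989381-64989410 (plus strand), chr19:46784893-46784922 (minus), chr13:29595663-29595692 (minus), chr12:46266502-46266531 (minus) and chr11:62881719-62881748 (plus). In SLC1A4 and SLC3A2 the element is on the opposite strand of the gene. The first base of the match is 7 bases before the start in SLC1A4, 97 before in SLC1A5 and 4 before in SLC38A1, and it is base 8 of the transcript in SLC7A1 and base 38 in SLC3A2. SLC1A4, SLC1A5, SLC3A2 and SLC38A1 have further windows without a match. In each of these genes the start of the matched window lies inside the gene's GENCODE 29 interval, not at its outer end. The E-box CACGTG, which MYC and related factors bind and which does not overlap the first motif, was found in 1 window of SLC7A5 and 1 of SLC1A5, and in 7.26% of all windows. The genes with a match ranged from -0.91 (SLC7A1) to -0.13 (SLC3A2) in log2 fold change. These matches describe the letters of the windows and are not evidence of binding.

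In the amino acid response, a list that holds the eIF2 kinases, ATF4 and genes known to act with it or after it, the counts depended on scaling. Of its 17 tested genes, 9 rose and 4 fell with TMM scaling, with a median of 0.23, beside 22.8% and 20.5% of all tested genes. With the length trend removed, 8 were higher and 5 lower with a median of 0.0061, beside 20.8% and 17.5% of all. By library total, 2 were higher and 11 lower with a median of -0.53, beside 4.03% and 68.0% of all. ATF4 went from 194 ± 9.42 to 389 ± 12.0 CPM (SD, n = 3; log2 1.01 ± 0.05, edgeR adjusted p = 8.63e-09), and its change was 0.25 by library total, where the median gene was at -0.77. Its counts were 12439, 13333 and 11118 in mod and 12993, 12135 and 13448 in Nvs. PPP1R15A, the regulatory subunit that has eIF2 dephosphorylated, rose by 1.47 ± 0.05 and DDIT3 (CHOP), a transcription factor of the stress response, by 1.03 ± 0.13. By library total PPP1R15A was at 0.71, and DDIT3 was at 0.27 and no longer called (edgeR adjusted p = 0.0939). EIF2AK4, which encodes GCN2, rose by 0.65 ± 0.06 but was at -0.10 by library total. With the length trend removed ATF4 was at 0.60, PPP1R15A at 1.15, DDIT3 at 0.72 and EIF2AK4 at 0.88, all still called higher. Outside the naming rule, the other genes called higher with TMM scaling were NUPR1 (1.48), ATF5 (0.68), CEBPG (0.49), CEBPB (0.41) and EIF2S1 (0.23). By library total these were at 0.72, -0.08, -0.27, -0.35 and -0.53. With the length trend removed they were at 1.24, 0.42, 0.29, 0.0061 and 0.24, and of these only CEBPB was no longer called (edgeR adjusted p = 0.956). NUPR1 was low, at 0.644 CPM in mod and 1.80 CPM in Nvs. The 4 falling genes, also outside that rule, were VLDLR (-2.36 ± 0.38), a lipoprotein receptor, the eIF2 kinases EIF2AK3 (-0.51) and EIF2AK2 (-0.47), and DDIT4 (-0.36), an inhibitor of mTORC1. VLDLR was low too, with counts of 149, 103 and 143 in mod and 12, 11 and 17 in Nvs. TRIB3, a pseudokinase known as a target of ATF4, stood at 20.0 ± 1.42 CPM in mod against 20.5 ± 0.606 for Nvs (0.03 ± 0.10, adjusted p = 0.826), also picked after its values were seen.

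Of 24 other amino acid transporters of the plasma membrane listed, 15 were tested. Of these, 6 fell and 0 rose, beside 20.5% and 22.8% of all tested genes, and the median was -0.35. In DESeq2 0 rose, beside 23.7% of all. At an unadjusted p under 0.05, where the share of all tested genes was not counted, 0 rose as well. By library total 12 were lower, beside 68.0% of all, and with the length trend removed 4 were lower, beside 17.5%; 0 were higher in both. SLC7A8, a second light chain of SLC3A2 for neutral amino acids (LAT2), went from 148 ± 8.57 to 67.9 ± 2.90 CPM (-1.12 ± 0.06, edgeR adjusted p = 9.22e-09). SLC6A9, a glycine carrier, fell by 0.63 ± 0.06, SLC1A3, a glutamate carrier, by 0.70 ± 0.07, and SLC38A5, a glutamine carrier, by 0.32 ± 0.06. The other two, named after their values were seen, were SLC7A11, the cystine carrier, at -0.35 ± 0.11 (adjusted p = 0.0213), and SLC38A4 at -1.58 ± 0.57 (adjusted p = 0.0375). With the length trend removed SLC7A11 was at -0.17 (adjusted p = 0.268), and SLC38A4 was at -1.42, close to its TMM value, with an adjusted p of 0.0631. With 1 library left out, SLC7A11 missed the threshold without mod replicate 2, mod replicate 3 or Nvs replicate 2 (up to 0.0878), and SLC38A4 without any library but Nvs replicate 3 (up to 0.116).

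Of 15 tested enzymes that use serine for glycine and one-carbon units, 2 were higher and 4 lower with a median of -0.13, beside 22.8% and 20.5% of all tested genes. These counts were 1 and 2 with the length trend removed, beside 20.8% and 17.5% of all. By library total they were 0 and 11, beside 4.03% and 68.0%. MTR, methionine synthase, fell by 0.56 ± 0.10 and MTHFD1L, a mitochondrial formate producer, by 0.72 ± 0.13, though MTHFD1L was at -0.35 with an adjusted p of 0.0537 with the length trend removed. TYMS, thymidylate synthase, rose by 0.71 ± 0.13 and was at -0.05 by library total. The other that rose, SHMT2, the mitochondrial enzyme that turns serine into glycine, gained 0.26 ± 0.06 and stood at -0.50 by library total and at 0.00 with the length trend removed; it was named after its values were seen. SHMT1, its cytosolic counterpart, had uneven counts of 52, 592 and 39 in mod and 651, 240 and 174 in Nvs.

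Of 15 tested genes for making other non-essential amino acids, 4 were higher and 5 lower with a median of -0.08, again beside 22.8% and 20.5% of all. With the length trend removed 4 were higher and 4 lower, beside 20.8% and 17.5% of all. By library total 1 was higher and 11 lower, beside 4.03% and 68.0%. GLUL, glutamine synthetase, rose from 130 ± 0.790 to 183 ± 4.53 CPM (0.49 ± 0.05, edgeR adjusted p = 2.79e-06), although by library total it was at -0.27. ASS1, which makes argininosuccinate on the way to arginine, rose by 0.85 ± 0.08, or 0.09 by library total. ALDH18A1, the first enzyme from glutamate to proline, fell by 0.42 ± 0.07. PYCR3, the last enzyme to proline, is uncertain despite a log2 fold change of 4.24 ± 0.80, since its counts were 34, 30 and 21 in mod and 14, 445 and 361 in Nvs. ASNS, asparagine synthetase, another known target of ATF4 looked up after the values were seen, was low throughout, at 0.934 ± 0.256 CPM in mod against 0.724 ± 0.292 for Nvs (-0.37 ± 0.46, adjusted p = 0.556).

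In the machinery that senses amino acids at the lysosome for mTORC1, 9 of 31 tested genes rose and 8 fell, with a median of -0.04, beside 22.8% and 20.5% of all. With the length trend removed 8 were higher and 2 lower, beside 20.8% and 17.5% of all, and by library total 1 was higher and 25 lower, beside 4.03% and 68.0%. The 4 with the smallest adjusted p all rose with TMM scaling, the Ragulator subunits LAMTOR4 (1.07 ± 0.08), LAMTOR5 (0.88 ± 0.09) and LAMTOR2 (0.90 ± 0.11) and the mTOR partner MLST8 (0.79 ± 0.07). By library total they were at 0.31, 0.12, 0.14 and 0.03, and of these 4 only LAMTOR4 was still called. Of the regulators outside these lists, MYC rose by 0.66 ± 0.06 (edgeR adjusted p = 2.56e-06) and NFE2L2 by 0.25 ± 0.06, and by library total they were at -0.10 and -0.51.

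**Figure D4:**
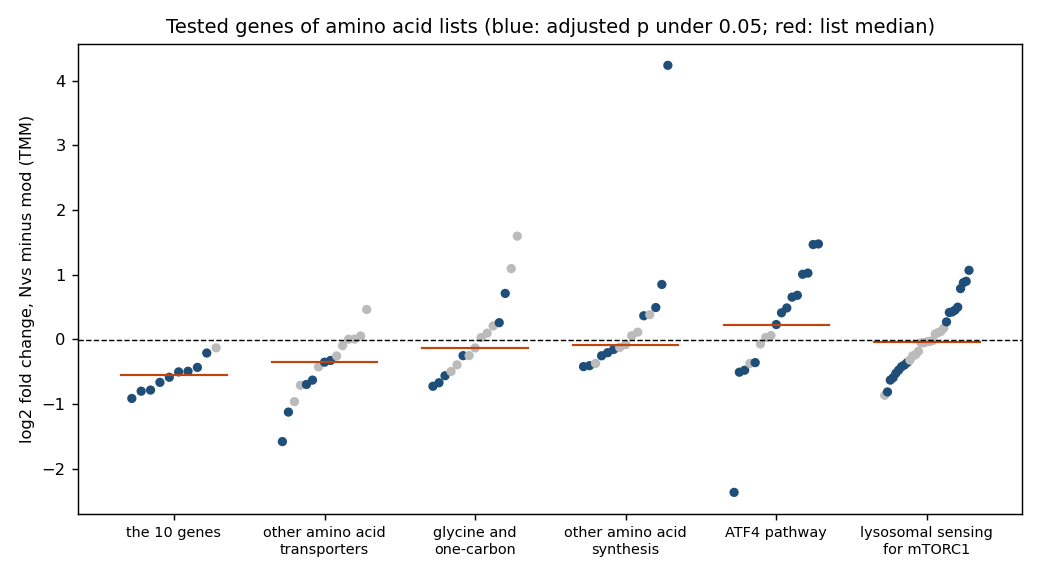
Log2 fold change (Nvs minus mod, TMM) of each tested gene in 6 lists, sorted within a list, with called genes in blue, others in grey, list medians in red and the median of all tested genes dashed. The 10 genes (median -0.54) and the other transporters (-0.35) lie mostly below the dashed line, and the ATF4 pathway has a median of 0.23, which was 0.0061 with the length trend removed; the isolated point at 4.24 is PYCR3.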

How the data were processed

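The 6 libraries were made by poly(A) selection with the dUTP strand-specific method, per the labels' protocols. Raw counts and FPKM values per gene symbol were deposited by the authors as 2 tables; build hg38 is named in the submitters' processing notes, and the sources used here name no aligner, counter or annotation. Genes passing filterByExpr (minimum count 10, minimum total 15), 14617 of 21961, were tested with edgeR 4.0.16 (quasi-likelihood, TMM, group as the only term, R 4.3.3), with Benjamini-Hochberg adjustment over all of them. Standard errors are the absolute log2 fold change over the root of F. Alternatives used DESeq2 1.42.0 and limma 3.58.1 on log2(FPKM + 1) or log2(FPKM + 0.1). The length trend was fitted by loess on RefSeq genomic span and given to edgeR as an offset. Coordinates of genes are those of GENCODE 29 (GRCh38). The edgeR procedure was tested on simulated data with less spread, fewer changed genes and no planned shift in mitochondrial share. That test does not cover these features of the libraries. The members and lists were chosen with earlier results of these data known. Beside the 10 genes, the text names up to 4 called genes per list by smallest adjusted p, plus ATF4 and MYC; exceptions are stated, and a few genes that the rule names are not reported here. The list for lysosomal sensing holds 33 symbols, of which PQLC2 is an older name of SLC66A1. No pair of libraries agreed within sampling noise (chi-square per degree of freedom 12.8 to 17.1).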

Additional observations from a re-analysis of the deposited data

How the results depend on the processing

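All 10 genes lay below the median of the tested genes in each of 17 fits (the reported one and 16 alternatives). These fits reuse the same 6 libraries, and how many of all tested genes lay below it in every fit was not counted. With 1 library left out, 8 to 10 of the 10 genes were called lower, beside 2414 to 3075 of 14970 to 15280 tested genes. In the other alternatives 9 or 10 were called lower, beside 3377 of 21961 (genes with any read) to 8141 of 10199 tested genes (FPKM + 1). SLC3A2 and PHGDH account for the difference in the count of the 10 genes. SLC3A2 had an edgeR adjusted p of 0.0271 to 0.156 with 1 library left out, and PHGDH missed the threshold without mod replicate 1. The replicate numbers did not pair the libraries (correlations of same-numbered deviations -0.02, -0.01 and -0.02); with the number as a block, 9 of the 10 genes, 3114 genes in all higher and 2835 lower were called, and SLC3A2 had an adjusted p of 0.126. Over all 14617 tested genes, 3337 were called higher and 2991 lower, and by library total these were 589 and 9938. With FPKM + 1 they were 541 and 8141 of 10199 tested, and with FPKM + 0.1 538 and 8119 of the same 10199. With FPKM + 1 over all 21961 genes they were 556 and 9894. Those scalings lack TMM, and the median gene moved by -0.77 by library total. Among the 10 genes and those of the naming rule, the log2 fold change turned for TYMS (-0.046 by library total, -0.035 with FPKM + 1, filtered or not, -0.043 with FPKM + 0.1), GLUL (-0.27, -0.24 and -0.26), EIF2AK4 (-0.10, -0.086 and -0.10), MYC (-0.10, -0.10 and -0.10) and NFE2L2 (-0.51, -0.43 and -0.50). Of genes named outside that rule, SHMT2 (-0.50), ATF5 (-0.08), CEBPG (-0.27), CEBPB (-0.35), EIF2S1 (-0.53) and TRIB3 (-0.73) also turned by library total. With 1 library left out, the difference in log2 FPKM ratio ran from -0.036 to 0.19 for SLC1A4 per SLC1A5, from -0.69 to -0.63 for SLC7A5 per SLC3A2 and from -0.71 to -0.50 for PSAT1 per PHGDH. With 3 libraries a group, a permutation test of a single ratio cannot reach p under 0.1.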
